A study of Aethionema arabicum with 12 samples.

Results

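The transcripts of oil body proteins were measured in seeds of the crucifer Aethionema arabicum after imbibition. The set was named by 7 Arabidopsis thaliana loci, which encode the oleosins OLEO1 to OLEO4, the caleosins CLO1 and CLO2 and the steroleosin HSD1. A gene model belonged to the set where the deposited table matched it to one of these loci, and 5 of the 23594 models did. They are OLEO1 (AA131G00012, matching AT4G25140), OLEO2 (AA87G00124, AT5G40420), OLEO3 (AA41G00039, AT5G51210), OLEO4 (AA53G01014, AT3G27660) and CLO1 (AA10G00436, AT4G26740). The CLO2 locus AT5G55240 and the HSD1 locus AT5G50600 had no matching model and were not analysed here.

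Oil bodies are the droplets in which seeds store triacylglycerol, the fuel of the seedling until it can photosynthesise. Oleosins are small hairpin proteins that coat the droplet and keep droplets from fusing. Caleosins bind calcium and act as peroxygenases, and steroleosins are droplet-bound dehydrogenases that bind sterols. In Arabidopsis these genes are switched on during seed maturation, and their transcripts decline as a seed germinates.

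Poly(A) RNA of whole seeds was sequenced from 4 groups of 3 libraries. They were CYP (Cyprus accession) seeds in white light, CYP seeds in darkness, TUR (Turkish ES1020 accession) seeds in white light and TUR seeds in darkness. Light was given at 100 µmol m-2 s-1, every group was sampled at 23 h, and the seeds taken were intact and had not germinated. As background, germination of the CYP accession is blocked by light, whereas TUR seeds germinate with or without it. Whole seeds hold embryo, endosperm and seed coat together. The labels do not say whether the 3 libraries of a group came from separate seed batches, so the p-values measure the spread between these libraries, which may be technical.

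Libraries held 7099578 to 13953792 counted reads, and 15671 models passed the filter on low counts, all 5 oil body models among them. Replicate 3 of CYP dark stood apart from its group, with a Pearson r of 0.984 and 0.985 across genes to the other CYP dark libraries, which had 0.994 with each other. It was also the shallowest of all libraries, with 7099578 reads. Every CYP light library (11859481 to 13953792 reads) was deeper than every CYP dark library (7099578 to 10256583 reads). The part of depth in the CYP light comparison was not tested. Replicate 2 of TUR light was the shallowest TUR library, and it had the lowest level of all 5 oil body models within its group. Levels are given as CPM, the count of a model relative to the library's total, scaled by TMM, a correction for differences in library composition. Levels of different genes are ranked as CPM per kilobase of model length. Plain CPM and shares of reads are not scaled by length.

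By CPM per kilobase, OLEO1, OLEO2 and OLEO4 were among the most abundant transcripts of these seeds, and OLEO3 and CLO1 were far lower. The ranks depend on the deposited model lengths, and no source used here says whether these include introns. Some models are long, such as PKL with 10820 bases and HSD3 with 13285, against 1146 for OLEO1 and 1315 for OLEO2. If introns are included, models with long introns rank too low, which was not tested. Ranked by CPM per kilobase among the 15671 models tested, OLEO2 was 16th in CYP light, 61st in CYP dark, 44th in TUR light and 102nd in TUR dark. OLEO1 was 22nd in CYP light, 49th in CYP dark, 54th in TUR light and 105th in TUR dark. OLEO4 ranked 64th in CYP light and 175th in TUR dark, its highest and lowest places. OLEO3 was placed between 1198 in CYP light and 2863 in TUR light, and CLO1 between 1601 in CYP light and 4165 in TUR dark. In CYP light, OLEO2 had 2397 ± 57.8 CPM per kilobase and CLO1 68.2 ± 0.751 (SD, n = 3 each).

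Together the 5 models took 0.677%, 0.726% and 0.656% of all counted reads in the CYP light libraries and 0.380%, 0.361% and 0.363% in the CYP dark libraries. In TUR the shares were 0.443%, 0.234% and 0.389% in light and 0.285%, 0.210% and 0.257% in darkness. The CYP light libraries were thus above every other library, and the TUR light libraries overlapped those of TUR dark. Exact 95% binomial (Clopper-Pearson) intervals of the shares were narrow, 0.673% to 0.682% for replicate 1 of CYP light and 0.230% to 0.237% for replicate 2 of TUR light, and they cover counting error only.

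**Figure D1:**
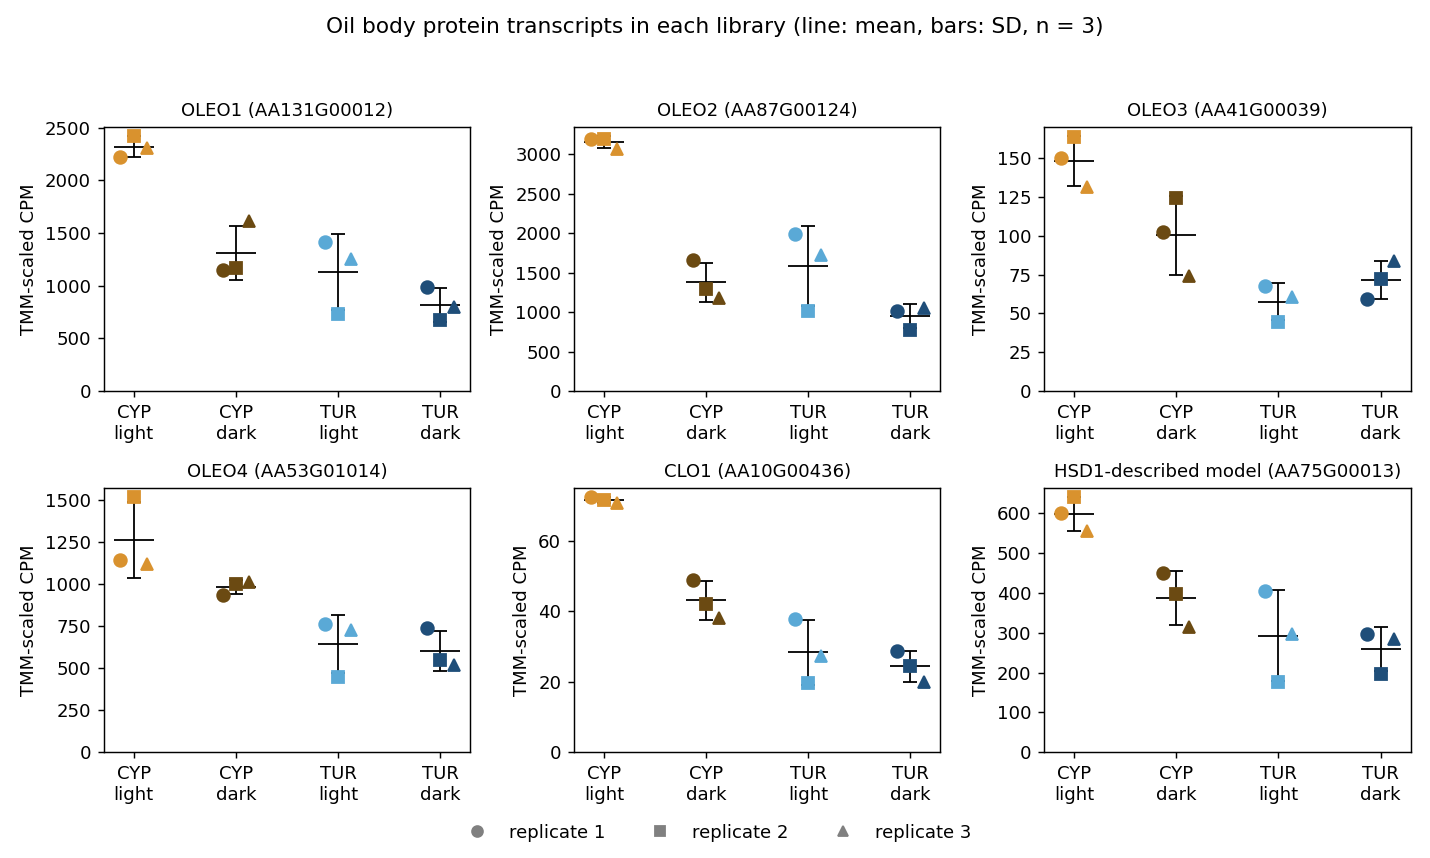
TMM-scaled CPM (vertical axis, from 0) of the 5 oil body models and of the model described as HSD1, in CYP light, CYP dark, TUR light and TUR dark. Each point is a library, marked by its replicate number, and lines and bars give the mean and SD of 3 libraries; the CYP light libraries are the highest for every gene shown, and replicate 2 is the lowest of TUR light for every gene shown.

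In CYP seeds, 4 of the 5 oil body genes were higher in light than in darkness: OLEO2 2.29-fold, OLEO1 1.77-fold, CLO1 1.66-fold and OLEO3 1.47-fold. OLEO4 had a fold of 1.28 and did not pass the test. The test was edgeR's quasi-likelihood F test with Benjamini-Hochberg adjustment over all 15671 models, with a gene called at an adjusted p under 0.05. Of all models tested, 24.9% were called in this comparison, 10.6% as higher in light and 14.3% as lower. For all 5 oil body genes each CYP light library was above each CYP dark library, as was so for 18.2% of all models. The median log2 fold change was 0.73 over the 5 genes and -0.0062 over all models.

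Marker genes of the seed's tissues moved with light as well, in both accessions. The 4 endosperm models summed to 201 to 229 CPM in CYP light and 369 to 387 CPM in CYP dark, and to 230.0 to 254 CPM in TUR light and 470.4 to 517 CPM in TUR dark. The 7 embryo models summed to 111 to 120 CPM in CYP light and 160.2 to 222 CPM in CYP dark, and to 138 to 158 CPM in TUR light and 155 to 201 CPM in TUR dark. The 7 seed coat models summed to 34.5 to 36.8 CPM in CYP light and 17.9 to 20.1 CPM in CYP dark, and to 24.4 to 26.4 CPM in TUR light and 15.4 to 16.0 CPM in TUR dark. The endosperm sums were thus lower in light in both accessions, the seed coat sums were higher, and the embryo sums of TUR overlapped. By edgeR's test all 3 endosperm models tested fell in light in both accessions. Of 3 seed coat models tested, 2 rose in CYP light and 1 in TUR light, and the other 4 of the 7 were too low to test. Of 7 embryo models, 3 fell in CYP light and 1 in TUR light. Of all models, 10.6% rose and 14.3% fell in CYP light, and 9.17% rose and 9.22% fell in TUR light. No read was counted for the endosperm regulator ZOU or the seed coat regulators TT16 and STK in any library. The part of these shifts in the oil body result was not tested, and in whole seeds fewer cells of a type and less RNA per cell cannot be told apart.

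OLEO2 had 3196, 3195 and 3064 CPM in CYP light, against 1657, 1293 and 1177 CPM in CYP dark. The light libraries lay close together and every one was well above the dark ones. This gave a log2 fold change of 1.20 (SE 0.19, 95% interval 0.81 to 1.59, adjusted p = 0.000101).

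OLEO1, which encodes the main oleosin of Arabidopsis seeds, had 2224, 2422 and 2309 CPM in CYP light, against 1152, 1172 and 1610 CPM in CYP dark. The highest dark value was that of replicate 3, the library that stood apart, and it was still under all light libraries. On the log2 scale OLEO1 was higher by 0.82 (SE 0.19, adjusted p = 0.00366).

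CLO1, the seed caleosin, had 72.4, 71.7 and 70.9 CPM in CYP light, against 48.9, 42.2 and 38.2 CPM in CYP dark. The light libraries differed from each other by less than for any other member, with a mean of 71.7 ± 0.789 CPM in light and 43.1 ± 5.44 CPM in darkness (SD, n = 3 each). Its log2 fold change was 0.73 (SE 0.16, adjusted p = 0.0031).

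OLEO3, a low-level oleosin in these seeds, had 150.0, 163 and 131 CPM in CYP light, against 102, 124 and 74.0 CPM in CYP dark. The lowest light library and the highest dark library were close. Light and dark differed by a log2 fold change of 0.56 (SE 0.17, adjusted p = 0.0207), and without replicate 1 or 2 of CYP light or replicate 3 of CYP dark the adjusted p was 0.0569 to 0.0868. It was also over 0.05 with limma, at 0.0522 on log2(RPKM + 1), 0.057 on log2(RPKM + 5) and 0.0814 on the deposited RPKM, so that OLEO3 was called in 9 of 15 alternatives. OLEO4 had 1146, 1521 and 1119 CPM in CYP light, against 934, 999.6 and 1013.5 CPM in CYP dark. Replicate 2 of CYP light was far above the other light libraries, which were just over the dark ones. For OLEO4 the log2 fold change was 0.36 (SE 0.17, 95% interval 0.0031 to 0.72, adjusted p = 0.133).

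In TUR seeds, OLEO2 was higher in light than in darkness, at 1.67-fold, and the other 4 oil body genes did not pass the test. Of all models, 18.4% were called, 9.17% as higher in light and 9.22% as lower, and 18.7% had all light libraries above all dark ones, as none of the 5 genes did. OLEO2 had 1995, 1019 and 1728 CPM in TUR light, against 1012, 776 and 1058 CPM in TUR dark. Replicate 2 of TUR light lay among the dark libraries and the other light libraries were well above them. For OLEO2 in TUR the log2 fold change was 0.74 (SE 0.18, 95% interval 0.35 to 1.12, adjusted p = 0.00888). Without replicate 1 of TUR light the adjusted p was 0.0901, without replicate 3 of TUR light 0.0592 and without replicate 2 of TUR dark 0.074. With limma on the deposited RPKM it was 0.123, but these RPKM rest on only 5.38% to 9.46% of the counted OLEO2 reads in TUR light.

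OLEO1 had 1411, 730.0 and 1250.4 CPM in TUR light, against 992, 672 and 798 CPM in TUR dark. The pattern over libraries was that of OLEO2, with replicate 2 of TUR light inside the dark range. The log2 fold change was 0.46 (SE 0.19, 95% interval 0.07 to 0.86, adjusted p = 0.100), and it was 0.68 with an adjusted p of 0.00669 without replicate 2 of TUR light.

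OLEO3 was the one member with a lower mean in TUR light than in TUR dark, and the difference did not pass the test. It had 67.5, 44.3 and 60.5 CPM in TUR light, against 59.1, 72.0 and 83.8 CPM in TUR dark, with overlapping groups. The log2 fold change was -0.31 (SE 0.17, 95% interval -0.67 to 0.05, adjusted p = 0.233).

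OLEO4 had 762, 448 and 726 CPM in TUR light, against 737, 549 and 518 CPM in TUR dark. CLO1 had 37.9, 19.7 and 27.4 CPM in TUR light, against 28.8, 24.4 and 20.1 CPM in TUR dark. In both genes the light libraries spread over the whole dark range. The log2 fold changes were 0.10 for OLEO4 (SE 0.17, adjusted p = 0.726) and 0.23 for CLO1 (SE 0.17, adjusted p = 0.388), and without replicate 1 of TUR light they were -0.056 for OLEO4 and -0.059 for CLO1.

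The difference between the accessions' responses to light was tested in the same fit, as the CYP log2 fold change minus that of TUR. None of the 5 oil body genes was called, against 2.24% of all models, made up of 0.408% with a positive difference and 1.83% with a negative one. The differences were all positive, 0.36 for OLEO1 (SE 0.27, adjusted p = 0.609), 0.46 for OLEO2 (SE 0.26, adjusted p = 0.471), 0.26 for OLEO4 (SE 0.24, adjusted p = 0.707) and 0.49 for CLO1 (SE 0.24, adjusted p = 0.377). OLEO3 had the largest of the 5, 0.87 (SE 0.24, 95% interval 0.36 to 1.38), with an unadjusted p of 0.00201 and an adjusted p of 0.0714. It was the only member with an unadjusted p under 0.05. DESeq2 called OLEO3 and no other member, at 0.89 with an adjusted p of 0.0268, limma called none, and over all alternatives its adjusted p ran from 0.0258 to 0.192. OLEO3 was also called without replicate 2 of CYP dark (1.09, adjusted p = 0.0286) and without replicate 1 of TUR dark (1.03, adjusted p = 0.0476). The light responses of OLEO1, OLEO3 and CLO1 passed in CYP and not in TUR, and a difference between the accessions is not shown by that.

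**Figure D2:**
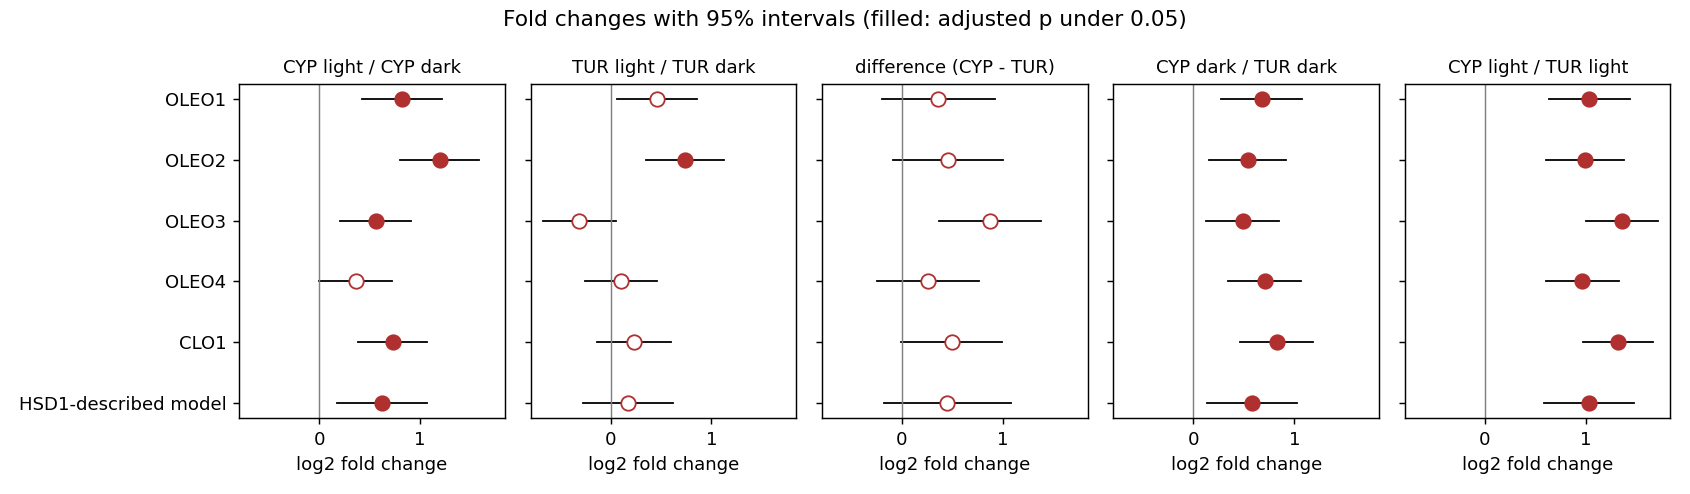
Log2 fold changes (horizontal axis) of the 5 oil body models and of the model described as HSD1 in the 5 comparisons, one panel each, with bars for the 95% intervals of edgeR's quasi-likelihood fit and filled circles for an adjusted p under 0.05. All circles are filled in both panels of CYP over TUR, 5 in CYP light over dark, 1 in TUR light over dark and none in the difference.

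All 5 oil body genes were higher in CYP than in TUR seeds, in light and in darkness. In light the folds ran from 1.95 for OLEO4 to 2.57 for OLEO3, with no overlap of libraries in any of the 5 genes. Of all models, 52.7% were called between the accessions in light, 24.9% as higher in CYP and 27.8% as lower, and 30.5% had all CYP light libraries above all TUR light libraries. In darkness the folds ran from 1.40 for OLEO3 to 1.77 for CLO1, and 44.5% of all models were called, 22.4% as higher in CYP and 22.1% as lower. In darkness 4 of the 5 genes had no overlap of libraries, as 25.3% of all models did in that direction. Being higher in CYP in both conditions was the case for 17.7% of all models. The accession comparisons share their libraries with the light comparisons. The sums of tissue markers differed between accessions as well, with CYP under TUR and no overlap for endosperm in light and in darkness and for embryo in light, and with CYP above TUR and no overlap for seed coat in both. Single markers went both ways. Of 3 endosperm models, 1 was higher and 1 lower in CYP light than in TUR light, and 2 were higher and 1 lower in CYP dark than in TUR dark. Of 3 seed coat models, 1 was higher in CYP in light and 1 in darkness, and of 7 embryo models 3 were lower in CYP in light and none was called in darkness by edgeR, DESeq2 or limma or had an unadjusted p under 0.05. The part of these differences in the oil body result was not tested.

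In light, OLEO3 averaged 148 ± 16.1 CPM in CYP and 57.4 ± 11.9 CPM in TUR (SD, n = 3 each), a log2 fold change of 1.36 (SE 0.17, adjusted p = 2.9e-06). CLO1 averaged 71.7 ± 0.789 CPM in CYP light and 28.3 ± 9.11 CPM in TUR light, a log2 fold change of 1.32 (SE 0.17, adjusted p = 2.72e-06). The abundant oleosins differed by a smaller factor. OLEO1 averaged 2318 ± 99.5 CPM in CYP light and 1131 ± 356 CPM in TUR light (log2 fold change 1.04, SE 0.19, adjusted p = 0.000177). OLEO2 averaged 3152 ± 76.1 CPM in CYP light and 1581 ± 504 CPM in TUR light (log2 fold change 1.00, SE 0.18, adjusted p = 0.000189). OLEO4 averaged 1262 ± 225 CPM in CYP light and 646 ± 172 CPM in TUR light (log2 fold change 0.97, SE 0.17, adjusted p = 0.000126). Replicate 2 was the lowest TUR light library in all 5 genes, and each TUR light library was under each CYP light library.

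In darkness, CLO1 averaged 43.1 ± 5.44 CPM in CYP and 24.4 ± 4.37 CPM in TUR (log2 fold change 0.82, SE 0.17, adjusted p = 0.000798). OLEO4 averaged 982 ± 42.7 CPM in CYP dark and 601 ± 119 CPM in TUR dark (log2 fold change 0.71, SE 0.17, adjusted p = 0.00257), a clear gap for a gene whose light response did not pass in either accession. OLEO1 averaged 1311 ± 259 CPM in CYP dark and 821 ± 162 CPM in TUR dark (log2 fold change 0.68, SE 0.19, adjusted p = 0.00738). OLEO2 averaged 1376 ± 250.3 CPM in CYP dark and 949 ± 151 CPM in TUR dark (log2 fold change 0.54, SE 0.18, adjusted p = 0.0239). OLEO3, whose libraries overlapped, averaged 100.3 ± 25.3 CPM in CYP dark and 71.6 ± 12.3 CPM in TUR dark (log2 fold change 0.49, SE 0.17, adjusted p = 0.0268). The dark calls of OLEO2 and OLEO3 did not hold with library totals alone in place of TMM, with adjusted p of 0.0536 for OLEO2 and 0.0675 for OLEO3. They did not hold with limma either (0.110 and 0.124 for OLEO2, 0.155 and 0.166 for OLEO3), and OLEO3 had 0.0542 in a fit of only the dark groups. Without replicate 2 of TUR dark, the lowest library for OLEO1 and OLEO2, the dark calls of OLEO1, OLEO2 and OLEO3 were lost, with adjusted p of 0.0578 for OLEO1, 0.145 for OLEO2 and 0.078 for OLEO3. OLEO2 lost its dark call without replicate 1 of CYP dark as well (adjusted p = 0.153), and OLEO3 without replicate 1 or 2 of CYP dark or replicate 1 of TUR dark (adjusted p 0.0743 to 0.211).

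CYP light was the highest group for all 5 genes, and TUR dark the lowest for all but OLEO3, which was lowest in TUR light. CYP dark was above TUR light on average for OLEO1, OLEO3, OLEO4 and CLO1, and under it for OLEO2. These middle groups differ in accession and in light and were not tested against each other. Their libraries overlapped for OLEO1 and OLEO2 and did not for OLEO3, OLEO4 and CLO1, for CLO1 by a narrow gap. The share of all models without overlap was not counted for this pair of groups, so no result is drawn from the overlaps. No source used here names the genome release behind the models, and whether reads of both accessions are counted equally well on it was not tested. The deposited RPKM of OLEO1, OLEO2 and OLEO4 in the TUR libraries rest, by an inferred scale, on only 5.38% to 13.8% of the reads that the deposited counts list for them. All values here therefore come from the counts, except those given as limma on the deposited RPKM.

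The make-up of the reads of the 5 oil body genes can be read within each library without any scaling between libraries. OLEO2 made up 47.1%, 43.3% and 45.8% of the reads of the 5 genes in CYP light, against 42.6%, 35.6% and 30.1% in CYP dark. In TUR it made up 46.7%, 45.1% and 45.6% in light, against 35.8%, 37.1% and 42.7% in darkness. In both accessions every light library thus had a larger OLEO2 share than every dark one.

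The OLEO4 share went the other way. Shares add up to the whole, so a larger OLEO2 share by itself makes the others smaller. The mean level of OLEO4 was not lower in light, at 1262 CPM in CYP light against 982 CPM in CYP dark. In TUR it was 646 CPM in light against 601 CPM in darkness. It made up 16.9%, 20.6% and 16.7% of these reads in CYP light, against 24.0%, 27.5% and 25.9% in CYP dark. In TUR its share was 17.8%, 19.8% and 19.2% in light, against 26.0%, 26.2% and 20.9% in darkness. OLEO1 had a similar mean share in every group, on average 33.4 ± 0.978% in CYP light, 34.3 ± 6.05% in CYP dark, 32.8 ± 0.416% in TUR light and 33.1 ± 1.69% in TUR dark (SD, n = 3 each). Replicate 3 of CYP dark was far from its group here, with 41.1% of OLEO1 and 30.1% of OLEO2. These shares were looked at after the values were seen and were not tested.

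**Figure D3:**
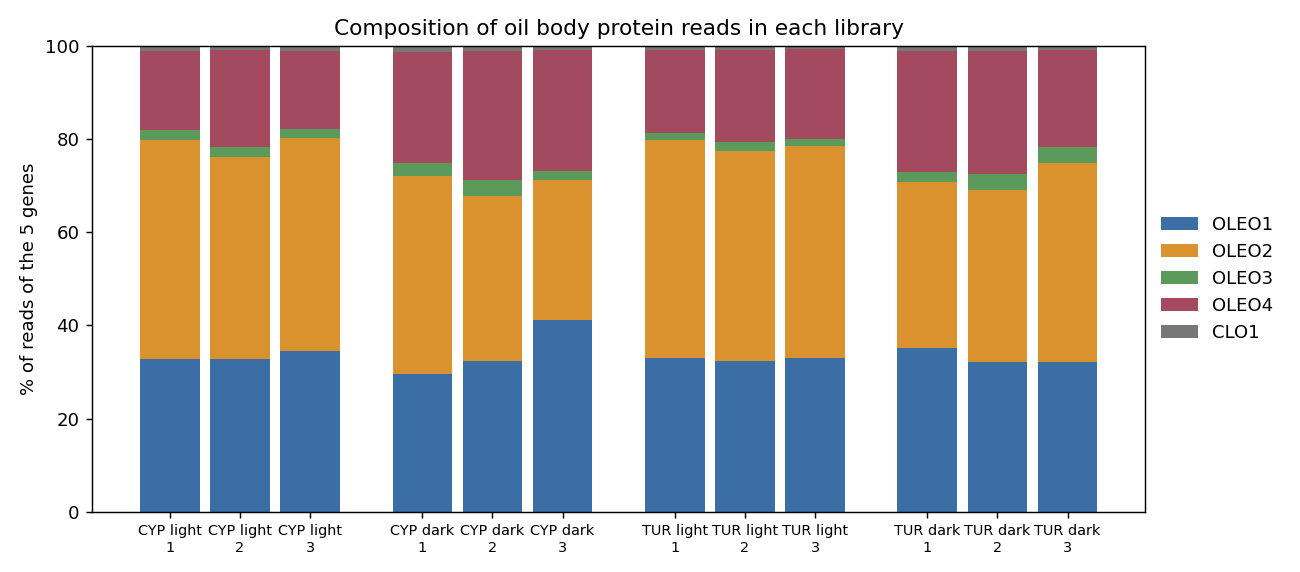
Share of each gene (percent, stacked to 100) in the reads of the 5 oil body models, one bar per library, by group and replicate number. OLEO2 takes 43.3% to 47.1% in the light libraries of both accessions and 30.1% to 42.7% in the dark ones, and OLEO4 takes 16.7% to 20.6% in light and 20.9% to 27.5% in darkness.

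Of the 16 other oleosin, caleosin and steroleosin loci searched, 6 had models that passed the filter on low counts, and 3 of these rose in CYP light against CYP dark, none fell, and 3 were not called. In TUR none of the 6 was called by edgeR, DESeq2 or limma, and 1 (HSD5) had an unadjusted p under 0.05. Over all models, 10.6% rose and 14.3% fell in CYP light by edgeR, and 18.4% were called in TUR. The model AA75G00013 matched AT5G50700, which the deposited table describes as hydroxysteroid dehydrogenase 1. In Arabidopsis the name HSD1 is used for AT5G50600 and for its near-identical copy AT5G50700. AA75G00013 had 601, 640.0 and 555 CPM in CYP light, against 450.1, 397 and 314 CPM in CYP dark. The groups did not overlap, and the log2 fold change was 0.63 (SE 0.21, adjusted p = 0.0372). That call was lost with DESeq2 (adjusted p = 0.0889), with limma (0.0814 and 0.0916) and without any 1 of the CYP libraries other than replicate 1 of CYP dark (adjusted p 0.0533 to 0.11). In TUR it had 405, 176 and 298 CPM in light, against 297, 196 and 285 CPM in darkness, which overlapped (log2 fold change 0.18, SE 0.21, adjusted p = 0.617). It was higher in CYP than in TUR in light (log2 fold change 1.03, SE 0.21, adjusted p = 0.000527) and in darkness (0.58, SE 0.21, adjusted p = 0.034), and the dark call was kept in 7 of 14 alternatives. It was lost with library totals alone (adjusted p = 0.0675), with DESeq2 (0.0905), with limma (0.131 and 0.148) and without replicate 1 or 2 of CYP dark or replicate 2 of TUR dark (0.0855 to 0.191).

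The dehydrogenase HSD5 (AA3G00138) had 228, 291 and 256 CPM in CYP light, against 201, 207 and 193 CPM in CYP dark. In TUR it had 88.6, 77.4 and 91.9 CPM in light, against 111, 95.4 and 101 CPM in darkness. Light libraries were thus all above dark ones in CYP and all under them in TUR. The log2 fold change was 0.37 in CYP (SE 0.10, adjusted p = 0.0128) and -0.25 in TUR (SE 0.10, adjusted p = 0.102), and the difference of 0.62 was called (SE 0.15, adjusted p = 0.0318). The CYP call was lost without replicate 2 of CYP light (adjusted p = 0.077) and with limma on the deposited RPKM (0.053). The call of the difference was lost with limma (0.0678 and 0.0517), with the replicate number as a block (0.0576) and without replicate 2 of CYP light, replicate 3 of CYP light, replicate 1 or 2 of TUR light or replicate 1 of TUR dark (adjusted p 0.0504 to 0.0842). The oleosin family model AA32G01068, which matches AT2G25890, averaged 150.1 ± 11.5 CPM in CYP light and 102 ± 9.36 CPM in CYP dark (log2 fold change 0.56, SE 0.16, adjusted p = 0.0143), with an adjusted p of 0.0609 without replicate 2 of CYP light and 0.0504 without replicate 2 of CYP dark. It was not called in TUR light against TUR dark, at 0.11 (SE 0.16, adjusted p = 0.677). AA32G01068 was higher in CYP than in TUR in light in all 14 alternatives (log2 fold change 0.34 to 0.74). In darkness it was called in none of them (-0.0023 to 0.13). HSD5 was higher in CYP in all 14 alternatives, in light (1.44 to 1.69) and in darkness (0.85 to 1.01). By edgeR, 24.9% of all models were higher in CYP in light and 22.4% in darkness.

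The remaining family members differed widely in CPM, which is not scaled by model length. The caleosin CLO4 (AA38G00032) averaged between 56.6 CPM in CYP dark and 71.4 CPM in TUR light and was called in none of the 5 comparisons, though without replicate 1 of TUR dark it was lower in CYP dark than in TUR dark (-0.42, adjusted p = 0.023). The caleosin AA39G00522 averaged 1.09 to 1.36 CPM and was called in none either. HSD3 (AA96G00012) averaged 0.499 CPM in CYP light and 2.67 CPM in TUR light, and was lower in CYP in light (log2 fold change -2.41, SE 0.35, adjusted p = 1.56e-05) and in darkness (-2.00, SE 0.37, adjusted p = 0.000288), calls lost with limma on log2(RPKM + 5) (adjusted p = 0.295 in light and 0.369 in darkness). HSD3 had only 3 to 9 reads in each CYP library, under 1 CPM in all of them. It passed the filter on low counts only through the TUR libraries, where it was higher. No accession difference is therefore drawn from these calls. Both models of CLO3, a stress-induced caleosin in Arabidopsis leaves, had 4 and 6 reads in all 12 libraries together and were not tested.

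Among the other proteins of the lipid droplet, SEIPIN1, SEIPIN2 and OBAP1A rose in CYP light, and both models of LDAP1 fell. Of 11 models tested, 3 rose, 2 fell and 6 were not called in CYP light against CYP dark. Of all models, 10.6% rose and 14.3% fell there. SEIPIN1 (AA40G00465), a protein of the endoplasmic reticulum at which droplets form, had 246, 227 and 246 CPM in CYP light, against 131, 124 and 160.5 CPM in CYP dark (log2 fold change 0.79, SE 0.14, adjusted p = 0.000351). OBAP1A (AA4G00020), an oil body associated protein, had 270.4, 269 and 246 CPM in CYP light, against 126, 122 and 125 CPM in CYP dark (log2 fold change 1.08, SE 0.24, adjusted p = 0.00261). Both had no overlap between light and dark libraries. SEIPIN2 (AA54G00392) rose by a log2 fold change of 0.37 (SE 0.12, adjusted p = 0.0278), a call lost without replicate 1 or 2 of CYP light or replicate 2 of CYP dark (adjusted p 0.061 to 0.104).

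LDAP1, a lipid droplet protein of leaves and other tissues, had 34.5, 36.9 and 36.4 CPM for its main model AA452G00006 in CYP light, against 61.5, 66.5 and 90.9 CPM in CYP dark (log2 fold change -1.02, SE 0.13, adjusted p = 9.54e-06). Its second model AA39G00766 fell as well, at under 6 CPM in every CYP library (log2 fold change -0.68, SE 0.22, adjusted p = 0.0318), and that call was lost in 5 of the 6 fits without 1 CYP library and in a fit of only the CYP groups (adjusted p = 0.0602). In TUR light against TUR dark, LDAP1 AA452G00006 was the 1 model of the 11 that was called, with a log2 fold change of -1.21 (SE 0.14, adjusted p = 4.39e-06). There 18.4% of all models were called. SEIPIN1 had a log2 fold change of 0.36 in TUR (SE 0.14, adjusted p = 0.087) and OBAP1A one of 0.36 (SE 0.24, adjusted p = 0.328). Between accessions, SEIPIN1 was higher in CYP by 1.39 in light (SE 0.14, adjusted p = 1.84e-07) and 0.96 in darkness (SE 0.14, adjusted p = 2.56e-05), on the log2 scale. OBAP1A was higher in CYP by 1.54 in light (SE 0.24, adjusted p = 3.09e-05) and 0.82 in darkness (SE 0.24, adjusted p = 0.0098), the dark call being lost without replicate 2 of TUR dark (0.62, adjusted p = 0.0722) and with limma on log2(RPKM + 5) (0.70, adjusted p = 0.0575).

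Of 12 triacylglycerol synthesis models, 1 rose, 4 fell and 7 were not called in CYP light against CYP dark, where 10.6% of all models rose and 14.3% fell, with a median log2 fold change of -0.14. FAD2 (AA168G00030), which makes linoleic acid, rose by 0.69 (SE 0.14, adjusted p = 0.00104). ROD1 (AA26G00291), which exchanges headgroups between phospholipid and diacylglycerol, fell by 1.10 (SE 0.21, adjusted p = 0.000731). DGAT3 (AA18G00231), a soluble acyltransferase, fell by 0.80 (SE 0.10, adjusted p = 9.66e-06), and FAD3 (AA32G00722), which makes linolenic acid, fell by 0.54 (SE 0.13, adjusted p = 0.00386), all on the log2 scale. With limma on the deposited RPKM the adjusted p of FAD3 was 0.0513.

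In CYP light against CYP dark, 10.6% of all models rose and 14.3% fell by edgeR. Of 16 models for triacylglycerol breakdown, β-oxidation and the glyoxylate cycle, none rose, 3 fell and 13 were not called there, with a median log2 fold change of 0.033. The 3 were the lipase OBL1 (AA26G00158) with -0.44 (SE 0.12, adjusted p = 0.0122), isocitrate lyase ICL (AA26G00814) with -0.56 (SE 0.11, adjusted p = 0.000733) and PCK1 (AA30G00293), which feeds gluconeogenesis, with -0.61 (SE 0.12, adjusted p = 0.00115). OBL1 lost its call without replicate 2 of CYP light (adjusted p = 0.0609) or replicate 1 of CYP dark (adjusted p = 0.094) and with limma on log2(RPKM + 1) (0.0628) or the deposited RPKM (0.102). In TUR light against TUR dark, 2 synthesis models rose and 1 fell of 12, and 1 breakdown model rose and 2 fell of 16. Of all models, 9.17% rose and 9.22% fell there. ICL was called there too, at -0.66 (SE 0.11, adjusted p = 0.000229), and FAD2 at 0.46 (SE 0.14, adjusted p = 0.0255), which did not hold without any 1 of the TUR light libraries or replicate 3 of TUR dark (adjusted p 0.051 to 0.119) or with limma on the deposited RPKM (0.0897). Between accessions more of these models were called. Of the 12 synthesis models, 6 were higher and 3 lower in CYP light than in TUR light, and 6 were higher and 1 lower in CYP dark than in TUR dark. Of the 16 breakdown models, 8 were higher and 2 lower in CYP light than in TUR light, and 7 were higher and 2 lower in CYP dark than in TUR dark. The share of all models called was 52.7% in light and 44.5% in darkness.

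**Figure D4:**
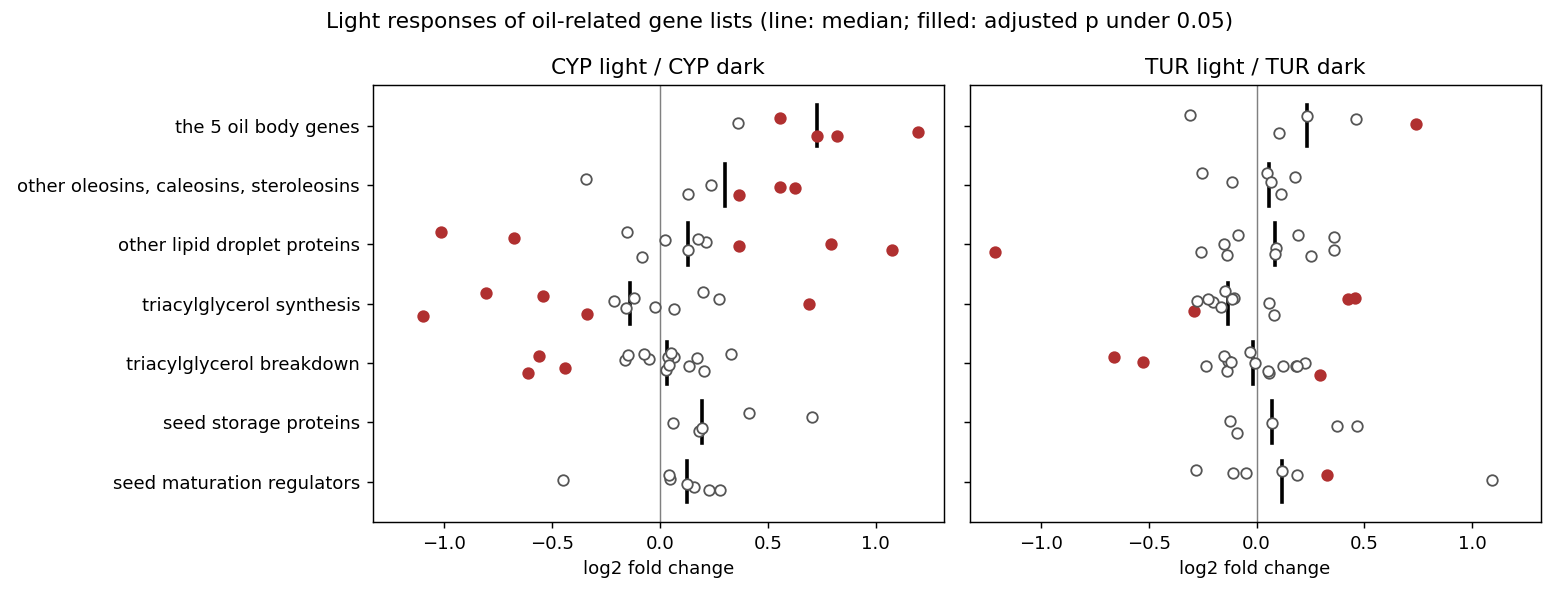
Log2 fold changes (horizontal axis) for CYP light over CYP dark and TUR light over TUR dark, 1 circle per tested model, in rows by gene list, with a line at each list's median and filled circles for an adjusted p under 0.05; points are spread vertically for legibility. In CYP the 5 oil body genes have a median of 0.73 and 4 filled circles to the right of 0, and no seed storage protein or maturation regulator is filled.

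None of the 5 seed storage protein models and none of the 7 seed maturation regulators was called in CYP light against CYP dark by edgeR, DESeq2 or limma, and 1 of each list had an unadjusted p under 0.05. Their median log2 fold changes were 0.20 for storage proteins and 0.12 for regulators. By edgeR, 24.9% of all models were called between light and darkness in CYP and 18.4% in TUR. In TUR, none of the storage models was called by edgeR, DESeq2 or limma or had an unadjusted p under 0.05. The regulator VAL1 (AA32G00659) rose in TUR light by a log2 fold change of 0.33 (SE 0.10, adjusted p = 0.0284), and without any 1 of 5 of the 6 TUR libraries its adjusted p was 0.0745 to 0.144, and with limma on the deposited RPKM it was 0.0756. Between accessions the storage proteins went in both directions, with 3 models higher and 1 lower in CYP, in light and in darkness. Of the 7 regulators, 1 was higher and 3 lower in CYP, in light and in darkness. ABI3 (AA109G00007) was lower in CYP in all 14 alternatives, by log2 fold changes of -0.39 to -0.28 in light and -0.49 to -0.34 in darkness. Of all models, 24.9% were higher and 27.8% lower in CYP in light, and 22.4% higher and 22.1% lower in darkness. The 2S albumin SESA5 (AA25G00010) averaged 2935 ± 292 CPM in CYP light and 50.7 ± 12.1 CPM in TUR light (log2 fold change 5.85, SE 0.33, adjusted p = 7.54e-11). SESA3 (AA32G01115), another 2S albumin, averaged 36.3 ± 13.3 CPM in CYP light and 122 ± 45.1 CPM in TUR light (log2 fold change -1.76, SE 0.29, adjusted p = 4.77e-05). Another model, AA32G01116, also matches the SESA3 locus, and whether reads are split between such models was not tested.

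The models whose level followed the oil body genes most closely were ranked by Pearson r of log2 CPM, over the 12 libraries, with the mean of the standardised levels of the 5 genes. The closest of 14950 candidates was AA21G00533, with r = 0.993. It matches AT2G47770, which the deposited table describes as related to TSPO, a tryptophan-rich sensory protein. OBAP1A (AA4G00020) followed with 0.987, then AA39G00386, a TLC lipid-sensing domain protein, with 0.983, AA31G00305, a PLATZ transcription factor family protein, with 0.982, and AA1G00071, a late embryogenesis abundant protein, with 0.980. Closest to OLEO2 alone were AA21G00441, a protein phosphatase 2C family protein (0.984), AA26G00277, a late embryogenesis abundant protein (0.982), and AA21G00061, a DNAJ domain protein (0.981). The libraries share accession and light groups, so these r values describe the pattern over the 4 groups and carry no test.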

How the data were processed

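Raw counts per gene model, as deposited by the authors in 1 table with gene lengths and Arabidopsis matches per the file headers, were analysed for 12 libraries in 4 groups of 3. Per the submitters' processing notes, HTSeq 0.6.1, Bowtie2 2.2.3, Trimmomatic and bcl2fastq 2.17.1 were among the tools and TAIR10 was a build, with no role stated for any. No source used here says whether counting used strand. RPKM values deposited by the authors, per the file headers, were used only in 1 alternative within each accession, chosen after seeing the data, and in the other observations. Every model had a name, so no row was left out of library sizes.

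Models with at least 1 CPM in at least 3 libraries were tested with edgeR 4.0.16 (R 4.3.3), with TMM scaling and quasi-likelihood F tests of 5 contrasts of the 4 group means over all libraries. P-values were Benjamini-Hochberg adjusted over all models tested, with a threshold of 0.05, and the code was tested on simulated data. The alternatives were other scalings, no filter, DESeq2 1.42.0, limma 3.58.1 on log2(RPKM + 1) and log2(RPKM + 5), the replicate number as a block, fits of only the groups compared, and each library left out in turn. Depth was 7099578 to 13953792 reads per library, where 3 reads correspond to 0.215 to 0.423 CPM. Members are named in full; of each related list, at most the 4 called models with the largest absolute log2 fold change in a comparison were eligible to be named, besides the models of most similar pattern, ranked by r. Members and lists were chosen with earlier results of these data known, and no p-value was adjusted over a list alone.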

Additional observations from a re-analysis of the deposited data

Results flagged for a closer look

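Among the models of the lists, 3 had light responses that differed between CYP and TUR by edgeR's quasi-likelihood test of the difference, CYP minus TUR on the log2 scale. Of all models, 2.24% were called in that test. HSD5 (AA3G00138), a dehydrogenase of the steroleosin family, had a difference of 0.62 (SE 0.15, adjusted p = 0.0318), and its adjusted p under the alternatives ran from 0.00366 to 0.0842, the highest without CYP light replicate 2. LACS7 (AA40G00101), a peroxisomal acyl-CoA synthetase, had a difference of 0.56 (SE 0.13, adjusted p = 0.0271), and its call was lost without CYP light replicate 2, CYP dark replicate 2, TUR light replicate 2 or 3 or TUR dark replicate 3 (adjusted p 0.0509 to 0.0593). It averaged 70.3 ± 2.57 CPM in CYP light and 68.9 ± 2.51 CPM in CYP dark, and 31.3 ± 2.45 CPM in TUR light and 45.2 ± 2.53 CPM in TUR dark (SD, n = 3 each). PDF1 (AA21G00071), an epidermal marker used here for the embryo, had a difference of -1.17 (SE 0.29, adjusted p = 0.0407), and its call was lost without any 1 of the light libraries or without TUR dark replicate 2 or 3 (adjusted p 0.077 to 0.121). It averaged 9.10 ± 0.470 CPM in CYP light and 57.8 ± 17.7 CPM in CYP dark, and 18.1 ± 0.865 CPM in TUR light and 50.4 ± 14.6 CPM in TUR dark. With limma on log2(RPKM + 1) the calls of all 3 were lost (adjusted p = 0.0678 for HSD5, 0.0605 for LACS7 and 0.0741 for PDF1), and on log2(RPKM + 5) those of HSD5 (0.0517) and PDF1 (0.147). Neither LACS7 nor PDF1 is an oil body protein.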

How the results depend on the processing

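Over the 5 oil body genes and 5 comparisons, 385 values were recomputed under alternatives. Of these, 352 kept direction and side of the threshold, 24 lost the call, 5 gained it and 4 changed sign. All 5 genes stayed called in CYP over TUR in light. For CYP light over dark the count of 4 became 3, without OLEO3, in each of the 3 limma fits and without CYP light replicate 1 or 2 or CYP dark replicate 3. In darkness the count of 5 became 3 with library totals alone, with limma on log2(RPKM + 1) and with limma on log2(RPKM + 5), and 2 to 5 without 1 library. For TUR light over dark the count of 1 became 0 with limma on the deposited RPKM and 0 to 2 without 1 library (2 without TUR light replicate 2; 0 without TUR light replicate 1 or 3 or TUR dark replicate 2). For the difference, 0 became 1, OLEO3, with no filter on low counts and with DESeq2, and 0 to 1 without 1 library (1 without CYP dark replicate 2 or TUR dark replicate 1). Counts over all models moved by over 1.5 times for TUR light over dark, to 1493 with the deposited RPKM, 1875 without TUR light replicate 3 and 1898 without TUR dark replicate 2, against 2882. For the difference they ran from 163 to 452 without 1 library, against 351. In most of these fits the count fell by over 1.5 times, whereas the rise to 452 was a smaller move. Some fold changes that did not pass the test changed sign without 1 library. For TUR light over dark these ran from -0.056 to 0.29 for OLEO4, -0.059 to 0.40 for CLO1, -0.098 to 0.23 for CLO4, -0.15 to 0.42 for AA75G00013, -0.089 to 0.31 for AT2G25890, -0.25 to 0.22 for HSD3 and -0.50 to 0.068 for AT1G23240. With the deposited RPKM they were -0.013 for AT2G25890 and -0.055 for HSD3. In CYP light over dark, HSD3 ran from -0.49 to 0.11 and AT1G23240 from -0.0092 to 0.34. HSD3 ran from -0.55 to 0.061 in the difference, AT1G23240 from -0.21 to 0.31 in CYP over TUR in light, and AT2G25890 from -0.0023 to 0.13 in darkness. The cause was not tested. Whether replicate numbers pair the libraries is not settled. Deviations from the group means correlated at -0.441 to 0.265 for same-numbered libraries and at -0.264 to 0.361 for the others. Between CYP light and CYP dark these ranges were 0.081 to 0.265 and -0.198 to 0.095. Between TUR light and TUR dark they were -0.140 to 0.127 and -0.155 to 0.146. Deviations within a group of 3 are tied to each other, so these values cannot decide it. With the number as a block 4, 1, 0, 5 and 5 members were called for CYP light, TUR light, the difference, and CYP over TUR in darkness and in light, as without it, while the calls of the difference for HSD5 (adjusted p = 0.0576) and PDF1 (adjusted p = 0.0672) were lost. CLO1, the member with the fewest reads, had 5730 in all.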

Other observations

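The deposited RPKM of the TUR libraries do not correspond to the deposited counts. In the CYP libraries each RPKM value of the oil body genes equals its count divided by model length and library total. In the TUR libraries the reads behind the RPKM were recovered from model length and a scale inferred for each library. That scale is the largest at which no model has more reads behind its RPKM than its count, and no source states it. The recovered reads were whole numbers within 0.01 reads or 0.01% for 100% of the values, and they sum to 29.8% to 38.4% of the counted reads. The shortfall differed between genes. For OLEO2 the RPKM rest on 5.38% to 9.46% of the counted reads, for OLEO1 on 6.49% to 11.1% and for OLEO4 on 8.63% to 13.8%. For OLEO3 the share was 22.7% to 47.0% and for CLO1 41.2% to 65.8%. Taken from the deposited RPKM, the ratio of CYP over TUR in light would be 9.86 for OLEO2, 8.48 for OLEO1 and 6.21 for OLEO4, whereas ratios of RPKM computed from the counts are 1.91 for OLEO2, 1.96 for OLEO1 and 1.87 for OLEO4. For CLO1 the order turns round, with 1.65 from the deposited RPKM and 2.42 from the counts, and for OLEO3 both are close, 2.57 and 2.47. No source used here says why the columns differ, and it was not tested. The direction, higher in CYP light than in TUR light, is the same from both columns for all 5 genes.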
